A study of Mus musculus with 7 samples.

Results

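The genes described here encode the nuclear receptors for retinoic acid (Rara, Rarb and Rarg), for 9-cis retinoids and as common dimer partners (Rxra, Rxrb and Rxrg), for thyroid hormone (Thra and Thrb) and for active vitamin D (Vdr). They were chosen by gene symbol, and all 9 were found among the 48321 genes counted in every library. RNA came from hand-dissected VMHvl, the ventrolateral division of the hypothalamic ventromedial nucleus, of ovariectomized female mice. The EB group of 4 mice had received 1 µg of estradiol benzoate (EB), an ester of estradiol, under the skin, and the vehicle group of 3 mice had received the carrier alone. Tissue was taken 4 hours later in both groups, and each library is 1 mouse. All the mice lacked ovaries and were of a mixed background with 129/Sv ancestry, from a line first made with a floxed Esr1 gene. The labels used here give no age and do not say which Esr1 alleles these mice carried. Dissected tissue holds neurons, glia and vessels, so fewer cells of a type and less RNA per cell cannot be told apart in any level below.

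These receptors are transcription factors that bind DNA mostly as pairs of 1 RXR with 1 RAR, thyroid hormone receptor or vitamin D receptor. Without hormone many of them hold corepressors on their target genes, and hormone binding exchanges these for coactivators. In the hypothalamus, thyroid hormone and retinoic acid take part in feeding, energy use and seasonal reproduction, and thyroid hormone receptors can compete with estrogen receptor alpha for related DNA elements. Retinoic acid receptors read repeats of a core hexamer such as AGGTCA, which is also the core of estrogen response elements.

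A pair of short genomic stretches from the RefSeq promoter table (GRCm38.p6) shows these elements beside the genes whose values follow. The first is shown because Rarb is itself a retinoic acid target, and its capitals mark a DR5, a direct repeat with 5 bases between its hexamers. The second holds the 250 bases before the downstream start of Rxrg, the member with the smallest p, and its capitals mark a single AGGTCA. The 250 bases before the upstream start of Rxrg held 0.
Rarb, chr14:16575506-16575535, minus strand: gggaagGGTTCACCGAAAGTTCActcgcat
Rxrg, chr1:167618015-167618264, plus strand: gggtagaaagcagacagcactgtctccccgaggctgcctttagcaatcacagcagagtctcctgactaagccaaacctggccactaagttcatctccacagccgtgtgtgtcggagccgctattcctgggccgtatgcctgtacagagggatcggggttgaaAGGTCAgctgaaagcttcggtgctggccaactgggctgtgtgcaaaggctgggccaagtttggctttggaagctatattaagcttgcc
The DR5 runs from 53 to 37 bases before the RefSeq start of Rarb, in a stretch that GENCODE also places in an exon of a longer Rarb transcript. Of the 9 receptors 8 matched the table, with 16 windows of 300 bases around a start in all, searched on both strands. Thra had no entry. The repeats DR1 to DR5 were of AGGTCA or close variants of it in the same direction, with 1 to 5 bases between. A DR5 was in 1 of the 16 windows, that of Rarb, and in 0.0974% of all 32851 windows. AGGTCA alone, which can form part of any of these repeats, was in 5 of the 16 windows (Rara, Rarg, Rxra, Rxrg and Thrb) and in 16.3% of all windows. The palindrome GGTCANNNTGACC, the full estrogen response element, and the DR1, DR2, DR3 and DR4 repeats were in 0 of the 16 windows, and in 0.0700%, 0.222%, 0.268%, 0.0396% and 0.0822% of all windows.

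Libraries held 21037303 to 33302293 counts and 23668 to 25901 detected genes. All 9 markers of VMH and VMHvl neurons, among them Esr1 and Nr5a1, had counts in every library. Their summed level was 1475 to 1700 CPM in EB mice and 1242 to 1808 CPM in vehicle mice, and Pgr and Cckar of that list were themselves called higher with EB. CPM here is the count scaled to library size after TMM normalisation, which corrects for library composition. Of 18387 genes tested with edgeR's quasi-likelihood test, 169 (0.919%) were called at a Benjamini-Hochberg adjusted p below 0.05, 131 (0.712%) higher and 38 (0.207%) lower with EB.

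Thyroid hormone receptors were by far the most abundant members, and the vitamin D receptor the least. Levels between genes were compared as CPM per kb of exon. Thra averaged 30.6 ± 1.35 CPM per kb in EB mice and 31.9 ± 3.39 CPM per kb in vehicle mice (SD, n = 4 and 3). Thrb averaged 26.8 ± 1.68 CPM per kb in EB mice and 27.8 ± 0.839 CPM per kb in vehicle mice. Over the 7 mice this put Thra above 93.9% and Thrb above 92.8% of the 17746 tested genes with a known exon length. Thra exceeded Thrb in 7 of 7 mice, by 1.00 to 1.26 times, but their ranges over mice overlapped. Per kb of the longest transcript, a length chosen for these orders after seeing the data, those ranges were separate.

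The RXR genes came next, led by Rxrg. Rxrg averaged 8.77 ± 1.30 CPM per kb in EB mice and 12.5 ± 3.68 CPM per kb in vehicle mice. Rxra averaged 6.09 ± 0.221 CPM per kb in EB mice and 6.78 ± 0.0723 CPM per kb in vehicle mice. Rxrg exceeded Rxra in every mouse, by 1.21 to 2.49 times, and their ranges were separate. Rxrb, at 2.32 ± 0.192 CPM per kb in EB mice and 2.62 ± 0.170 CPM per kb in vehicle mice, lay below Rxra in every mouse. Rara averaged 2.20 ± 0.545 CPM per kb in EB mice and 1.66 ± 0.172 CPM per kb in vehicle mice, and was below Rxrb in 5 of 7 mice, so these neighbours did not differ beyond their spread.

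The lower end of the order held the other RAR genes and Vdr. Rarb averaged 1.31 ± 0.177 CPM per kb in EB mice and 1.24 ± 0.270 CPM per kb in vehicle mice, below Rara in 7 of 7 mice. That order depends on the length used, since per kb of the longest transcript Rarb was above Rara in 3 of 7 mice. Rarg averaged 0.377 ± 0.223 CPM per kb in EB mice and 0.562 ± 0.189 CPM per kb in vehicle mice. Vdr averaged 0.156 ± 0.0817 CPM per kb in EB mice and 0.168 ± 0.0357 CPM per kb in vehicle mice, above only 4.89% of tested genes. Rarg exceeded Vdr in each mouse, but their ranges over mice overlapped.

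**Figure D1:**
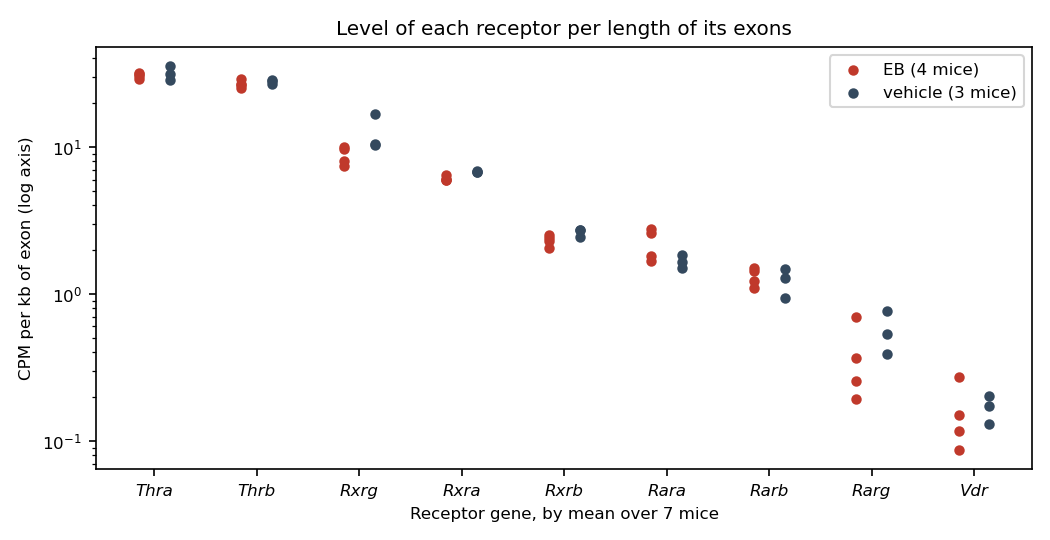
TMM-normalised CPM per kb of exon (log axis) for each receptor gene, ordered by its mean over 7 mice, with a point per mouse for EB on the left and vehicle on the right. Thra and Thrb lie between 25.0 and 35.4 CPM per kb in every mouse, and Vdr lies below 0.273.

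No receptor was called in either direction. EdgeR called 0 of the 9 members, beside 0.919% of all tested genes. DESeq2 called 0, beside 2.68% of the 13394 genes it gave an adjusted p, and limma-voom called 0, beside 0.848%. At an unadjusted p below 0.05 there was 1 member, Rxrg, where 8.54% of all tested genes passed. Estimates were negative for 7 of the 9 members, against 51.7% of all tested genes, with a median log2 change of −0.10 against −0.01 over all tested genes. The groups did not overlap for Rxra and Rxrg, both lower with EB, which was 2 of 9 members beside 9.1% of all tested genes (3.99% lower and 5.12% higher with EB).

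**Figure D2:**
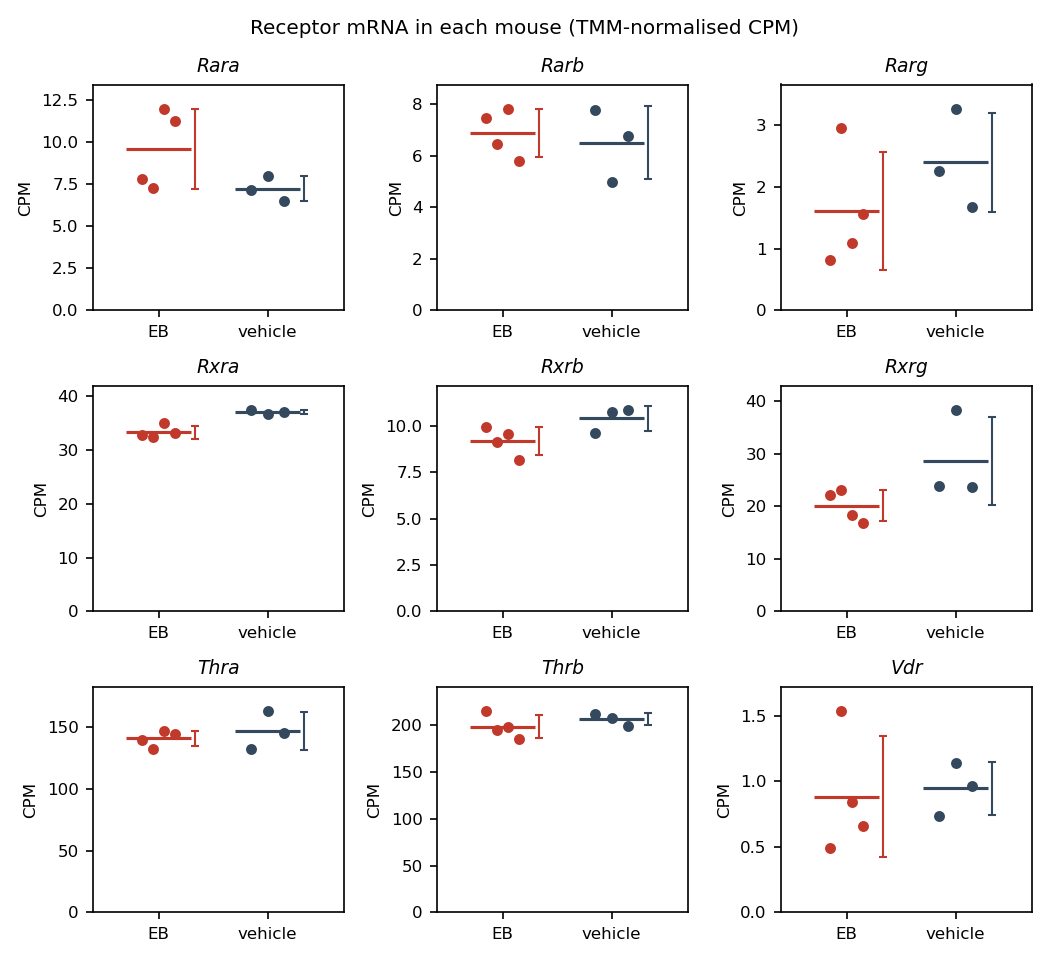
TMM-normalised CPM of each receptor in 4 EB mice and 3 vehicle mice, with a point per mouse, a line at the group mean and a bar of 1 SD beside it. The groups separate for Rxra and Rxrg and overlap for the other 7 genes.

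Among the retinoic acid receptors, Rara had the highest estimate. Rara, a broadly expressed receptor that also serves in dendrites during synaptic scaling (chr11:98927818-98974942, plus strand, GRCm38), was at 7.84, 7.30, 12.01 and 11.3 CPM in EB mice 1 to 4, and at 7.19, 8.01 and 6.52 CPM in vehicle mice 1 to 3. EB 3 and EB 4 stood above every vehicle mouse, while EB 1 and EB 2 lay within the vehicle range. The log2 change was 0.40 ± 0.20 (SE), with a 95% confidence interval from −0.04 to 0.84 and an adjusted p of 0.654 by edgeR. That interval reaches a 1.80-fold higher level.

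Rarb, the retinoic acid receptor that retinoic acid itself induces through the DR5 shown above (chr14:16430839-16819156, minus strand), was at 7.48, 6.47, 7.84 and 5.80 CPM in EB mice. In vehicle mice it was at 7.77, 4.97 and 6.78 CPM, so the groups overlapped. Its log2 change was 0.09 ± 0.20 (95% interval −0.35 to 0.52, adjusted p = 0.965 by edgeR), and −0.08 without vehicle 2. Its 1793 bases of exon shared with Top2b, a topoisomerase gene on the opposite strand, make up 34.1% of Rarb exons. Top2b itself was at 205 ± 11.2 CPM in EB mice and 203 ± 19.1 CPM in vehicle mice, and without a stated strand setting reads in the shared stretch cannot be assigned.

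Rarg, the RAR best known from skin and skeleton (chr15:102234938-102257517, minus strand), had 25 to 96 counts in an EB library and 38 to 103 in a vehicle library. It was at 0.817, 2.96, 1.10 and 1.56 CPM in EB mice and at 2.25, 3.26 and 1.67 CPM in vehicle mice. EB 2 lay within the vehicle range and the other 3 EB mice below it. The log2 change of −0.57 ± 0.44 had an interval from −1.52 to 0.38 (adjusted p = 0.817 by edgeR). It was −1.06 without EB 2 and −0.28 without vehicle 2.

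Within the RAR family, Rara made up 52.7%, 46.5%, 61.2% and 63.7% of the summed CPM per kb in EB mice 1 to 4, and 45.1%, 51.8% and 47.0% in vehicle mice 1 to 3. Rarb held 34.0 ± 5.95% in EB mice and 35.9 ± 8.01% in vehicle mice, and Rarg 9.93 ± 6.45% in EB mice and 16.2 ± 4.83% in vehicle mice (SD, n = 4 and 3). The groups overlapped in all 3 shares. The family sum was 3.89 ± 0.487 CPM per kb in EB mice and 3.46 ± 0.252 CPM per kb in vehicle mice.

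All 3 RXR genes had negative estimates. Rxrg, the RXR of restricted pattern that is known from striatum, pituitary and oligodendrocyte lineage cells (chr1:167598384-167639623, plus strand), was at 22.2, 23.1, 18.4 and 16.9 CPM in EB mice. In vehicle mice it was at 23.9, 38.4 and 23.6 CPM. Every EB mouse lay below every vehicle mouse, but EB 2 and vehicle 3 were only narrowly apart, and vehicle 2 stood far above the rest. The log2 change was −0.51 ± 0.18, with an interval from −0.89 to −0.13, and the unadjusted p of 0.0127 became an adjusted p of 0.343 by edgeR. Without vehicle 2 the log2 change was −0.24 and the adjusted p 0.7555, and over all alternatives the adjusted p ran from 0.126 to 0.7555.

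Vehicle 2 was also the highest library for the VMH and VMHvl neuron markers, at 1808 CPM, and for a list of amygdala, striatum and cortex markers. The 9 genes of the amygdala, striatum and cortex list summed to 163 to 185 CPM in EB mice and to 184 to 235 CPM in vehicle mice, with 235 CPM in vehicle 2. Adora2a, a striatal marker, was at 0 counts in EB 3 and no marker was at 0 in all libraries. Oligodendrocyte lineage markers, 8 of 8 detected in every library, summed to 816 to 977 CPM in EB mice and 940 to 1009 CPM in vehicle mice, again highest in vehicle 2. Of the 7 genes found from the anterior pituitary list, Gh, Prl, Lhb, Fshb and Pou1f1 were each at 0 counts in at least 1 library, and the sum was 2.65 to 28.0 CPM in EB mice and 7.63 to 14.4 CPM in vehicle mice. The 7 endothelial markers, all detected in every library, summed to 77.7 to 96.7 CPM in EB mice and 97.3 to 134 CPM in vehicle mice. These sums were lower with EB and only narrowly without overlap. Within the vehicle group the endothelial sum was 134, 97.3 and 107 CPM in mice 1 to 3. Vehicle 2 was thus lowest of the vehicle mice for these markers and for Rxra, but highest for Rxrg. The 6 microglial markers, also detected throughout, summed to 118 to 133 CPM in EB mice and 130 to 143 CPM in vehicle mice. The part of these markers in the Rxrg and Rxra values was not tested.

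Rxra, a widely shared dimer partner (chr2:27676440-27762957, plus strand), varied little within each group. It was at 32.7, 32.3, 35.0 and 33.2 CPM in EB mice and at 37.4, 36.6 and 37.0 CPM in vehicle mice, with no overlap. The difference was small, a log2 change of −0.15 ± 0.09 with an interval from −0.34 to 0.03, and it did not pass (unadjusted p = 0.0982, adjusted p = 0.699 by edgeR). Its log2 change stayed between −0.18 and −0.14 when any 1 mouse was left out. Rxrb, a ubiquitous RXR (chr17:34031812-34038399, plus strand), was at 9.96, 9.12, 9.56 and 8.19 CPM in EB mice and at 9.64, 10.7 and 10.9 CPM in vehicle mice, where EB 1 lay within the vehicle range. Its log2 change was −0.18 ± 0.15 (interval −0.50 to 0.14).

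Rxrg was the largest part of the RXR family per length. It held 53.3%, 55.1%, 47.6% and 47.5% in EB mice and 52.9%, 64.0% and 52.0% in vehicle mice, so the groups overlapped. Rxra held 35.7 ± 3.50% in EB mice and 31.6 ± 5.11% in vehicle mice, and Rxrb 13.5 ± 0.747% in EB mice and 12.2 ± 1.75% in vehicle mice. The family sum of CPM per kb was 18.2, 18.3, 16.8 and 15.5 in EB mice and 19.7, 26.1 and 19.8 in vehicle mice. Each EB sum was below each vehicle sum, and as the sum rests on Rxrg and Rxra this repeats their separation.

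**Figure D3:**
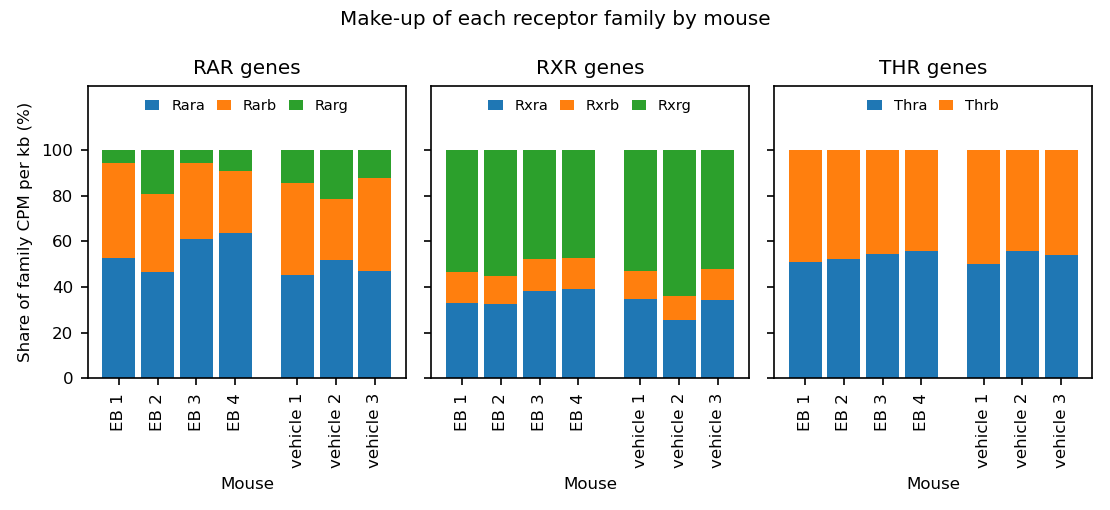
Share of each gene in its family's summed CPM per kb of exon, as a stacked bar per mouse, with 4 EB mice left of 3 vehicle mice. Rxrg takes 47.5% to 64.0% of the RXR sum, and Thra takes 50.1% to 55.8% of the thyroid hormone receptor sum.

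Both thyroid hormone receptors were measured with the narrowest intervals of the set. Thra (chr11:98740638-98769006, plus strand) encodes a hormone-binding receptor and, by alternative splicing, a variant that does not bind hormone, which gene counts cannot separate. It was at 140, 133, 147 and 145 CPM in EB mice and at 132, 163 and 145 CPM in vehicle mice. All 4 EB mice lay within the vehicle range. The log2 change was −0.06 ± 0.08, with an interval from −0.23 to 0.11 (adjusted p = 0.925 by edgeR), which spans 0.853-fold to 1.08-fold. Without vehicle 2 it was 0.02.

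Thrb, whose products mediate hormone feedback in hypothalamus and pituitary (chr14:17660261-18038090, plus strand), was at 215, 195, 197 and 185 CPM in EB mice and at 212, 207 and 199 CPM in vehicle mice. EB 1 exceeded every vehicle mouse and the other 3 EB mice lay below them. The log2 change was −0.06 ± 0.07, and its interval from −0.20 to 0.08 spans 0.872-fold to 1.06-fold (adjusted p = 0.908 by edgeR). Thra held 53.3 ± 2.06% of the family's CPM per kb in EB mice and 53.3 ± 2.92% in vehicle mice. Thra exons share 263 bases, 5.70% of their length, with those of Nr1d1, a clock repressor on the opposite strand, which was at 36.9 ± 5.001 CPM in EB mice and 41.4 ± 8.38 CPM in vehicle mice.

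Vdr, the receptor for active vitamin D (chr15:97854425-97910630, minus strand), was barely detected. It had 15, 50, 20 and 16 counts in EB libraries 1 to 4 and 19, 36 and 22 counts in vehicle libraries 1 to 3. As CPM this was 0.490, 1.54, 0.843 and 0.658 in EB mice and 0.739, 1.14 and 0.969 in vehicle mice. The EB values spread to both sides of the vehicle range, with EB 2 highest and EB 1 lowest. The log2 change of −0.10 ± 0.51 had an interval from −1.20 to 1.00, which spans 0.435-fold to 1.997-fold.

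**Figure D4:**
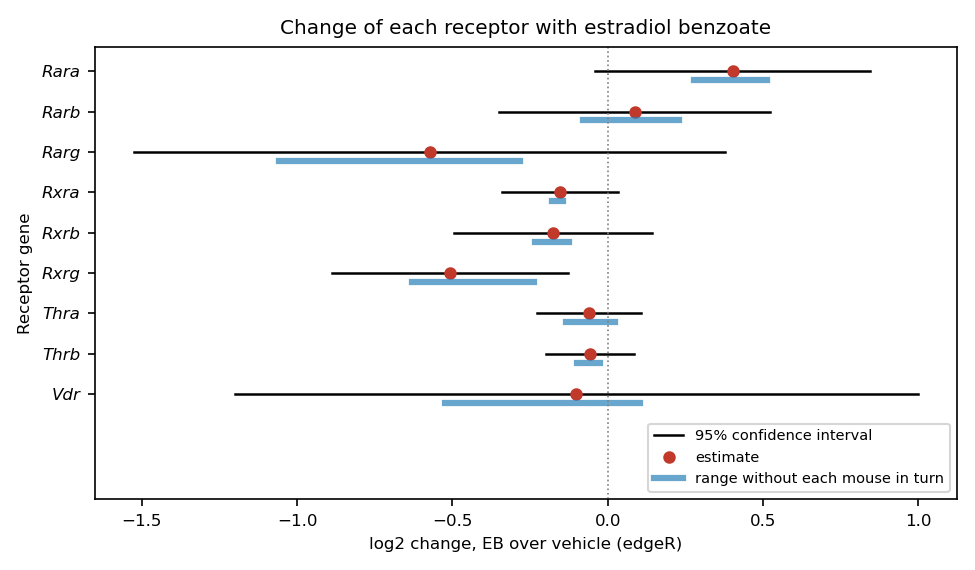
Log2 change of each receptor, EB over vehicle, by edgeR (point) with its 95% confidence interval (black) and the range of estimates when each mouse is left out in turn (blue). The interval of Rxrg, from −0.89 to −0.13, lies below 0 before adjustment for multiple testing, and the other 8 intervals hold 0.

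The enzymes and carriers that set retinoic acid supply held 1 called gene. Rdh10, the retinol dehydrogenase that takes retinol to retinaldehyde on the way to retinoic acid (chr1:16105774-16133734, plus strand, GRCm38), rose with EB. It was at 21.1, 16.8, 18.3 and 19.6 CPM in EB mice, against 11.5, 12.3 and 7.31 CPM in vehicle mice. Every EB mouse exceeded every vehicle mouse. The rise was 1.82-fold (log2 0.86 ± 0.18, interval 0.48 to 1.25, adjusted p = 0.0375 by edgeR), with 0.712% of all tested genes called higher. By edgeR it lost its call without vehicle 1 (adjusted p = 0.0643), vehicle 3 (0.122), EB 1 (0.153), EB 2 (0.0584), EB 3 (0.0819) or EB 4 (0.0914), with a log2 change between 0.67 and 1.00, and kept it without vehicle 2 (0.0248). Over all alternatives its adjusted p ran from 0.000270, by DESeq2, to 0.153.

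Of 13 tested genes for retinoid supply, Rdh10 was the 1 called higher and 0 were lower, and 2 passed an unadjusted p below 0.05, beside 8.54% of all tested genes. The median log2 change was −0.27, against −0.01 over all tested genes. Crabp1, a cytosolic retinoic acid carrier, had 1 to 8 counts in an EB library and 14 to 18 in a vehicle library (log2 −1.71 ± 0.70, adjusted p = 0.491 by edgeR). Aldh1a1, which makes retinoic acid from retinaldehyde, had the highest mean level per length over all 7 mice among the tested genes of the list, though Rdh10 was higher in EB mice and Aldh1a2 in vehicle mice. It was at 14.3, 12.7, 20.8 and 30.5 CPM in EB mice and 47.3, 14.6 and 13.2 CPM in vehicle mice. Its log2 change of −0.36 had an interval from −1.80 to 1.09 and was 0.48 without vehicle 1.

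Vehicle 1, highest for Aldh1a1, was also highest for the retinoid genes Aldh1a2, Crabp2 and Cyp26b1, at 26.2, 4.63 and 14.5 CPM. Aldh1a2 and Crabp2 were named after their values were seen. Aldh1a2 is itself 1 of the 11 markers of meningeal fibroblasts and mural cells, which summed to 44.5 to 153 CPM in EB mice and 49.1 to 255 CPM in vehicle mice, with 255 CPM in vehicle 1. All 11 markers had counts in every library. The part of those cells in the retinoid values was not tested.

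Breakdown and response genes of the retinoic acid pathway gave no calls. Cyp26b1, the brain's main retinoic acid hydroxylase, was the 1 tested gene of 3 and had a log2 change of −0.69 ± 0.61, which turned to 0.28 without vehicle 1. Of 10 tested response genes, Rarb among them, edgeR, DESeq2 and limma-voom called 0, and the median log2 change was −0.13. At an unadjusted p below 0.05 there were 0, beside 8.54% of all tested genes. Rarres2, which encodes the adipokine chemerin, was at 2.82 ± 0.872 CPM in EB mice and 3.91 ± 0.877 CPM in vehicle mice. It shares 892 exon bases with Lrrc61 on the opposite strand. Rai1, a chromatin regulator named for its induction by retinoic acid, was at 39.6 ± 2.62 CPM in EB mice and 39.4 ± 5.98 CPM in vehicle mice.

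Genes of thyroid hormone supply gave 0 calls among 9 tested by edgeR, DESeq2 and limma-voom. These methods called 0.919%, 2.68% and 0.848% of all genes to which they gave an adjusted p. At an unadjusted p below 0.05 there was 1, beside 8.54% of all tested genes, and the median log2 change was −0.13. Slc7a5, a large amino acid transporter that can carry thyroid hormone, was at 21.6 ± 3.52 CPM in EB mice and 17.2 ± 2.57 CPM in vehicle mice (log2 0.33, adjusted p = 0.585 by edgeR). Dio2, the deiodinase that activates thyroid hormone in astrocytes and tanycytes, was at 24.5 ± 6.80 CPM in EB mice and 25.7 ± 3.62 CPM in vehicle mice. Dio2 was named after its values were seen.

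Ttr, the thyroid hormone and retinol carrier of choroid plexus, was at 98.1 ± 34.0 CPM in EB mice and 157 ± 38.9 CPM in vehicle mice (log2 −0.68, interval −1.46 to 0.09, adjusted p = 0.663 by edgeR). The 7 choroid plexus markers, Ttr among them, summed to 107 to 201 CPM in EB mice and 178 to 241 CPM in vehicle mice. Ttr itself gave most of that sum, 199 of the 241 CPM in vehicle 2. The sum is therefore no separate measure of choroid plexus tissue beside Ttr. Folr1, another choroid plexus marker, was at 0 counts in 1 library. The part of choroid plexus tissue in the Ttr values was not tested.

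Response genes of thyroid hormone also gave 0 calls by edgeR and limma-voom among 10 tested. At an unadjusted p below 0.05 there were 2, beside 8.54% of all tested genes. DESeq2 called 1, beside 2.68% of the 13394 genes it gave an adjusted p. That gene was Klf9, a zinc-finger transcription factor that thyroid hormone and glucocorticoids induce in brain. It was at 104, 111, 105 and 107 CPM in EB mice and at 88.5, 82.8 and 87.7 CPM in vehicle mice, with no overlap. Its log2 change of 0.31 ± 0.07 had an adjusted p of 0.0537 by edgeR, just outside the threshold, and of 0.00156 by DESeq2. Over the alternatives the adjusted p ran from 0.00156 to 0.535. Nrgn, neurogranin, a thyroid hormone target in rodent forebrain, was at 120 ± 7.35 CPM in EB mice and 132 ± 21.6 CPM in vehicle mice.

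Of 7 genes of the thyroid axis 6 were tested, and 0 were called by edgeR, DESeq2 or limma-voom. An unadjusted p below 0.05 was reached by 0, beside 8.54% of all tested genes. Tshr, the thyrotropin receptor, was at 4.08 ± 1.47 CPM in EB mice and 6.11 ± 2.73 CPM in vehicle mice. Trhde, the enzyme that breaks down thyrotropin-releasing hormone, was at 53.7 ± 10.4 CPM in EB mice and 57.3 ± 11.8 CPM in vehicle mice. Tshb, the thyrotropin beta subunit, was at 2.42, 3.39, 3.37 and 9.14 CPM in EB mice and at 5.56, 5.23 and 6.39 CPM in vehicle mice, so that EB 4 lay above and the other EB mice below the vehicle range.

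Vitamin D genes were sparse. Of 8 genes of vitamin D metabolism and uptake 5 were tested, and of 8 response genes 3. In either list 0 were called by edgeR, DESeq2 or limma-voom. An unadjusted p below 0.05 was reached by 0 in either list, beside 8.54% of all tested genes. Cyp24a1, the enzyme that breaks down active vitamin D and its best known target, had 0 to 5 counts in a library, and Cyp27b1, which makes active vitamin D, had 0 to 9. Both were named after their values were seen. Cyp2r1, the hepatic vitamin D hydroxylase, had 8 to 39 counts, and DESeq2 gave it no adjusted p and so could not call it. Pdia3, an endoplasmic reticulum disulphide isomerase also proposed as a membrane receptor for vitamin D, was at 320 ± 5.46 CPM in EB mice and 344 ± 25.6 CPM in vehicle mice. Calb1, calbindin, which vitamin D induces in kidney, was at 555 ± 51.4 CPM in EB mice and 601 ± 60.7 CPM in vehicle mice. Spp1, osteopontin, was at 4.66 CPM in vehicle 1 and at 0.277 to 1.85 CPM in the other mice, and its log2 change of −1.37 turned to 0.11 without vehicle 1. DESeq2 gave Spp1 no adjusted p either.

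Other nuclear receptors that pair with RXR gave 0 calls by edgeR, DESeq2 or limma-voom among 7 tested, with 2 at an unadjusted p below 0.05, beside 8.54% of all tested genes. Pparg, a receptor for fatty acid ligands, had 39 to 54 counts in an EB library and 11 to 24 in a vehicle library. It was at 1.67, 1.48, 1.64 and 2.22 CPM in EB mice and at 0.933, 0.348 and 0.749 CPM in vehicle mice, with no overlap (log2 1.38 ± 0.45, interval 0.41 to 2.34, adjusted p = 0.286 by edgeR). DESeq2 gave Pparg no adjusted p and so could not call it. Nr1h2, the oxysterol receptor LXR beta, was at 4.70 ± 0.725 CPM in EB mice and 6.80 ± 1.7 CPM in vehicle mice (log2 −0.54 ± 0.22, adjusted p = 0.491 by edgeR). Nr4a2, an orphan receptor that can pair with RXR, was at 7.16 ± 1.81 CPM in EB mice and 8.48 ± 2.19 CPM in vehicle mice.

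Among 11 corepressors and coactivators, edgeR called 1 higher and 0 lower, beside 0.712% and 0.207% of all tested genes, with 3 at an unadjusted p below 0.05, beside 8.54%, and a median log2 change of 0.02. Nrip1, which encodes RIP140, a ligand-dependent corepressor that binds RAR, RXR and estrogen receptors, rose with EB. It was at 99.5, 91.0, 84.7 and 89.8 CPM in EB mice, against 52.1, 49.8 and 54.6 CPM in vehicle mice. Every EB mouse exceeded every vehicle mouse, a 1.75-fold rise (log2 0.81 ± 0.08, adjusted p = 0.000239 by edgeR), and it kept its call in all 14 alternatives (adjusted p 1.84e-17 to 0.00348). Tbl1xr1, a subunit of the NCoR corepressor complex, was at 105, 122, 131 and 118 CPM in EB mice and at 144, 166 and 139 CPM in vehicle mice, with no overlap (log2 −0.33 ± 0.09, adjusted p = 0.139 by edgeR, and 0.0206 by DESeq2). Its relative Tbl1x was at 201 ± 4.62 CPM in EB mice and 205 ± 6.84 CPM in vehicle mice.

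**Figure D5:**
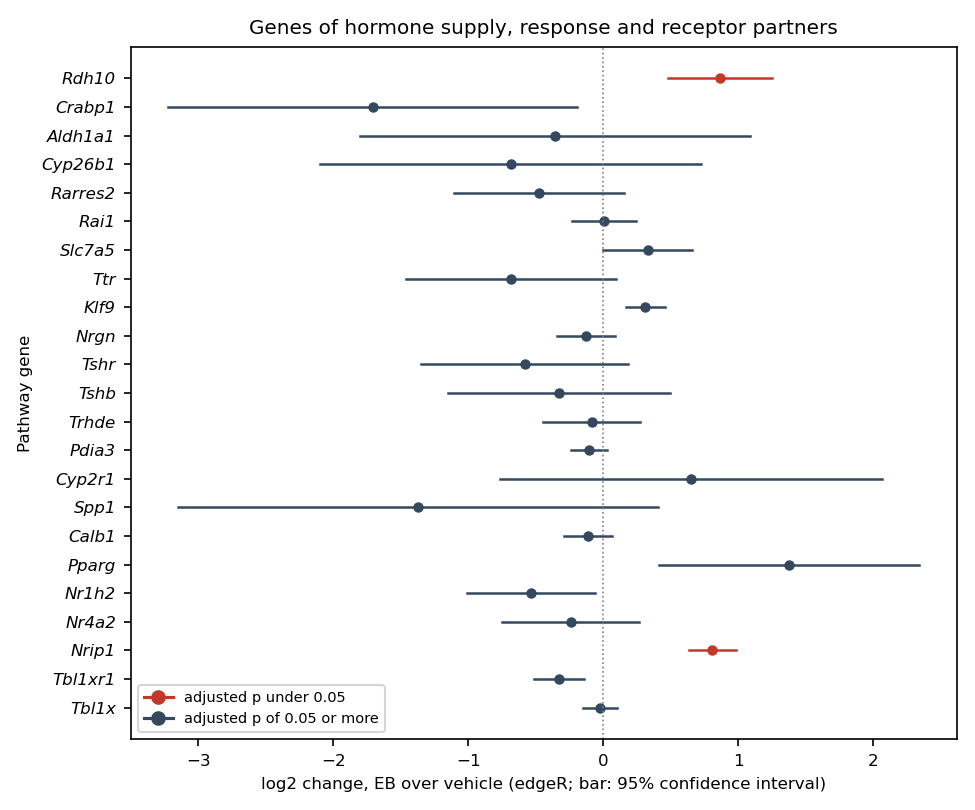
Log2 change, EB over vehicle, with 95% confidence interval by edgeR for named genes of hormone supply, hormone response, RXR partners and coregulators, with genes past an adjusted p of 0.05 in red. Rdh10 at 0.86 and Nrip1 at 0.81 are the 2 genes in red.

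Genes whose levels followed a receptor across mice were listed as a description. For the most abundant member of each family per length, and for Vdr, the 3 closest of 10872 genes were taken by Pearson's r. It was computed on log2 CPM over all 7 mice, among genes with a mean of at least 5 CPM. In each mouse a gene and its receptor share group, library and depth, so differences between groups or libraries enter r. With so many candidates and only 7 mice, high values of r can also arise by chance. For Rara these were Pcsk5 (r = 0.970), Syt2 (0.961) and Fam210a (0.959). For Rxrg, at 38.4 CPM in vehicle 2 and 16.9 to 23.9 CPM in the other mice, they were Lipa (0.994), B3galnt1 (0.988) and Tmem132b (0.983). Each had a lower mean in EB mice, as Rxrg did, which the choice by r over both groups largely fixes. These lower means are no further evidence on Rxrg. For Thra they were Rplp1 (0.992), Polr3b (0.992) and Kdm4c (0.985). For Vdr they were Cdc25a (0.966), Tsr1 (0.955) and Hirip3 (0.944).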

How the data were processed

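The values deposited by the authors are unnormalised whole counts, 48321 gene symbols per mouse. HISAT2, HTSeq and DESeq2 are named with build mm10, per the submitters' processing notes. Versions, annotation, strand and the handling of multiply mapped reads could not be taken from the labels or files. Input was 15 ng per mouse and the kit was the NuGEN Trio of Tecan, per the labels. Members, lists and tests were chosen with earlier results of these data known.

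Genes were kept by filterByExpr (minimum count 10), which left 18387 of the 31222 genes with any count. TMM scaling was followed by edgeR 4.0.16 (robust glmQLFit, glmQLFTest) in R 4.3.3, with no covariate. All adjusted p-values are Benjamini-Hochberg values over all tested genes. The SE was the absolute log2 change over the square root of F, and 95% intervals used the fit's degrees of freedom. Alternatives were DESeq2 1.42.0, limma-voom (limma 3.58.1), other scalings and filters, and leaving out mice. The fits were also run on simulated counts, drawn separately for each gene at its fitted dispersion, with no shift common to many genes of a mouse. Those runs cannot show how the fits handle the differences between replicate mice given below, and no result here rests on them. Genes were named as called, as the 2 smallest p and as the highest level per kb in each list, and 1 gene so chosen is not reported here. Exon lengths and positions came from GENCODE M21 (GRCm38, also named mm10), with a length for 96.5% of tested genes. Replicate pairs differed by 17.0 to 166 chi-square units per degree of freedom, far above sampling noise. Vehicle 1 differed from vehicle 2 by 166 and from vehicle 3 by 155.5, while vehicle 2 and vehicle 3 differed by 19.75. Among EB mice the largest value was 101.8, for EB 1 against EB 4. Figures were drawn with matplotlib 3.10.9.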

Additional observations from a re-analysis of the deposited data

Results flagged for a closer look

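Of 33 genes looked at in the 4 EB mice, 2 had a mouse far from the other 3. Chance alone gives about 5% of such groups, so this count is near the chance share. Slc7a5, an amino acid and thyroid hormone transporter, stood at 26.8 CPM in EB 4 and at 19.1 to 20.2 CPM in the other EB mice. Tshb, the thyrotropin beta subunit, stood at 9.14 CPM in EB 4 and at 2.42 to 3.39 CPM in the other EB mice. The anterior pituitary list, which holds Tshb, summed to 28.0 CPM in EB 4. Most of that sum was Tshb itself, at 9.14 CPM, and Cga, at 18.4 CPM.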

How the results depend on the processing

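No paired analysis was possible because replicate numbers were given in accession order within each group and tie no EB mouse to a vehicle mouse. All 9 receptors stayed uncalled under every alternative, DESeq2 giving Vdr no adjusted p. Log2 changes that changed sign did so when 1 mouse was left out, with ranges of −0.079 to 0.23 for Rarb, −0.14 to 0.022 for Thra and −0.52 to 0.10 for Vdr. Against 131 higher and 38 lower of 18387 genes, DESeq2 called 234 higher and 125 lower of 13394 with an adjusted p, library totals 17 lower of 18387, no filter 62 lower of 31222, and removal of vehicle 1 and EB 4 together, added after seeing the data, 85 higher of 18816. With any 1 mouse left out, 72 to 132 were higher (72 without vehicle 3, 84 without EB 1) and 19 to 37 lower (19 without EB 1, 22 without vehicle 3, 25 without EB 2). The retinoid supply count of 1 was 0 to 1 with 1 mouse left out, and 0 without vehicle 1 and EB 4. Among thyroid response genes 1 was higher by DESeq2, without mitochondrial and haemoglobin genes, or at an adjusted p under 0.1. Among thyroid axis genes 1 (Cga) was lower without vehicle 1 and EB 4, and 0 to 1 with 1 mouse left out. Among coregulators 1 (Tbl1xr1) was lower by DESeq2 and with no filter.

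Lengths moved family shares. By the longest transcript, Rara held 42.4% of RAR in vehicle mice, Rxrb 17.7% of RXR in EB mice and 16.01% in vehicle mice, Thra 64.3% in EB mice and 64.2% in vehicle mice, and Thrb 35.7% in EB mice and 35.8% in vehicle mice. Without division by length, Rxra held 53.2% in EB mice and 49.1% in vehicle mice, Rxrg 32.1% in EB mice and 37.2% in vehicle mice, Rxrb 14.7% in EB mice, Thra 41.6% in each group and Thrb 58.4% in each group.

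Named pathway genes with an estimate of the other sign were as follows, the cause not tested. Without vehicle 1 and EB 4 together the log2 change was 0.19 for Aldh1a1, −0.079 for Rai1, 0.070 for Trhde, 0.15 for Nr4a2 and −3.24 for Cga. By library totals it was 0.012 for Tbl1x, and by limma-voom −2.32 for Cga. With 1 mouse left out the ranges were −0.66 to 0.48 for Aldh1a1, −1.07 to 0.28 for Cyp26b1, −0.10 to 0.13 for Rai1, −0.25 to 0.0010 for Trhde, −2.22 to 0.11 for Spp1 and −3.65 to 0.63 for Cga. Counts were low for Vdr, at 15 to 50 in a library, and for Rarg, at 25 to 103.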

Other observations

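Cga, the alpha subunit shared by thyrotropin and the gonadotropins, was chosen after its values were seen. It had 7, 19, 3 and 448 counts in EB libraries 1 to 4 and 158, 73 and 88 in vehicle libraries 1 to 3. EB 4 was highest and the other EB mice lay below every vehicle mouse. The log2 change was 0.23 ± 1.74 (adjusted p = 0.989 by edgeR) and −3.65 (0.0109) without EB 4. Other pituitary hormone genes were sparse: Prl had 53 counts and Gh 34 in vehicle 3, and both had 0 in the other 6 libraries.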
